A study of Mus musculus with 6 samples.

Results

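A 5' splice site is the junction at which an exon ends and an intron begins, and where 2 such sites lie close together in 1 exon the spliceosome joins either of them to the same downstream exon. The U1 snRNP reads the site first by base pairing with the start of the intron, and the U6 and U5 snRNPs take it over before the intron is cut, with U5 holding the end of the exon. Close 5' splice sites therefore differ in only a few bases of the mRNA, which add or remove some amino acids, shift the reading frame or change an untranslated region.

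The events described here are the alternative 5' splice sites (A5SS) of CD4+ T cells whose 2 sites lie at most 50 bases apart, chosen from the table of A5SS events by the lengths of the longer and the shorter exon alone. They numbered 1095 of the 2434 A5SS events and of 65785 splicing events of all 5 classes. They lay in 876 genes and comprised 962 different pairs of sites, since 108 pairs stood in more than 1 event with another downstream exon, so that such events share reads. RNA came from CD4+CD8- cells sorted from pooled spleen and peripheral lymph nodes of adult male mice. The cKO group held 3 libraries of U5-52Kf/f CD4-Cretg mice, in which Cre under the CD4 promoter removes the floxed gene of CD2BP2/U5-52K, an assembly factor of the U5 snRNP, from the double positive thymocyte stage on. The Control group held 2 libraries of U5-52Kwt/f CD4-Cretg mice and 1 of a U5-52Kf/f CD4-Cre- mouse, so that floxed alleles and Cre were not equal within it. The comparison asks how the choice between close 5' splice sites differs in T cells that lack this factor.

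Cd2bp2, the targeted gene, had normalized read counts of 884, 874 and 738 in cKO libraries, against 2624, 2602 and 2612 in Control libraries (limma adjusted p = 0.00137). Libraries held 56995121 to 82286366 reads in genes. The T cell markers Cd3e, Cd4 and Lck were high in every library, and the 8 measured T cell markers summed to 415633 to 449113 normalized counts in cKO, against 440137 to 510451 in Control. Myeloid markers were 11 of 11 above 0 in each library and summed to 55397 in cKO library KO_7.8, against 16662 and 18785 in the other 2 cKO libraries and 13237 to 17919 in Control libraries. B cell markers, 7 of 7 above 0, summed to 4301 to 8060 in cKO and 9044 to 12012 in Control, and NK cell markers, 4 of 4 above 0, to 3324 to 5002 in cKO and 2297 to 3000 in Control. Erythroid markers, 4 of 4 above 0, summed to 3076 in KO_7.8 and 329 and 385 in the other cKO libraries, against 4063 in CTRL_5.6, the Control library without Cre, and 171 and 484 in the other Control libraries. Over all genes, KO_7.8 differed from the other cKO libraries with a chi-square per gene of 303 and 283, against 37.5 between those, and CTRL_5.6 from the other Control libraries with 113 and 151, against 23.7 between those. The splicing tables do not name the library of each value, so KO_7.8 and CTRL_5.6 cannot be set aside by name in the results on splicing, and the part of other cells in them was not tested. In such bulk samples a change within T cells and a change in the mixture of cells cannot be told apart.

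The sequences at the 2 sites show what each choice adds to the mRNA. They are given for the called events, together with 1 event of Srsf5 and 1 of Srsf7, in order of role below, from GENCODE M21 transcripts on GRCm38. Each runs 5' to 3' from the last 3 bases of the shorter exon through the bases only the longer exon holds and, where a transcript covers them, the first 6 bases of the intron after the downstream site. Capitals mark the first 2 intron bases after the upstream site and, where read, after the downstream site. The extensions lie at chr11:3332229-3332249 (Pik3ip1, plus strand), chr5:105136810-105136838 (Gbp4, minus), chr6:108388339-108388365 (Itpr1, plus), chr19:4624660-4624684 (Rce1, minus), chr9:108063903-108063920 (Rnf123, minus), chr9:122857067-122857102 (Zfp445, minus), chr11:69346572-69346617 (Chd3, minus), chr17:27559671-27559703 (Hmga1, plus), chr8:70135536-70135565 (Rfxank, minus), chr7:19584780-19584783 (Clasrp, minus), chr12:80945669-80945672 (Srsf5, plus) and chr17:80204122-80204130 (Srsf7, minus).
Pik3ip1: cagGTactcgccctgggaccacggGTaagg
Gbp4: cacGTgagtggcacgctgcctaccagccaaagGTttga
Itpr1: aagGTaacaatgatgaggagaagctgaaga
Rce1: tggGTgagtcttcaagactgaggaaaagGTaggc
Rnf123: cagGTgtggcaggagggacag
Zfp445: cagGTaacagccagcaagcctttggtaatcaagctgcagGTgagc
Chd3: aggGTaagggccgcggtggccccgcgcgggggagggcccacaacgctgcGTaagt
Hmga1: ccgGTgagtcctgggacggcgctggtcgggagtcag
Rfxank: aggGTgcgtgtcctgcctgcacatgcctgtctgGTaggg
Clasrp: aaaGTcaGTaaga
Srsf5: ccgGTagGTgagt
Srsf7: gagGTatttccaGTatgt
In the events 4 bases apart, Clasrp and Srsf5, the downstream site begins at the fifth base of the upstream intron, so that the 2 intron starts share bases. Stambpl1, the remaining called event, has its extension in the 5' UTR at chr19:34192596-34192631 on the plus strand, and only its upstream site is shown, as ctgGTgagt.

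Distances of 4 bases were the most common, with 112 events (10.2%), followed by 9 bases with 62 events, and 447 events (40.8%) differed by a multiple of 3, which keeps the reading frame where the extension is coding. Where the first 6 intron bases after the upstream site could be read, 30 of 37 events 4 bases apart (81.1%) held GTNNGT on the gene's strand, against 222 of 924 events at other distances (24.0%). At 4 bases the second GT of this pattern is the start of the downstream intron itself. The upstream intron began with GT in 1021 and with GC in 61 of 1090 events read, and the downstream intron with GT in 381 and with GC in 9 of the events read there. Extensions lay in coding sequence in 815 events, in 5' UTRs in 137, in noncoding transcripts alone in 112 and in 3' UTRs in 30. The plot of distances shows the peak at 4 bases and the smaller peaks at multiples of 3.

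**Figure D1:**
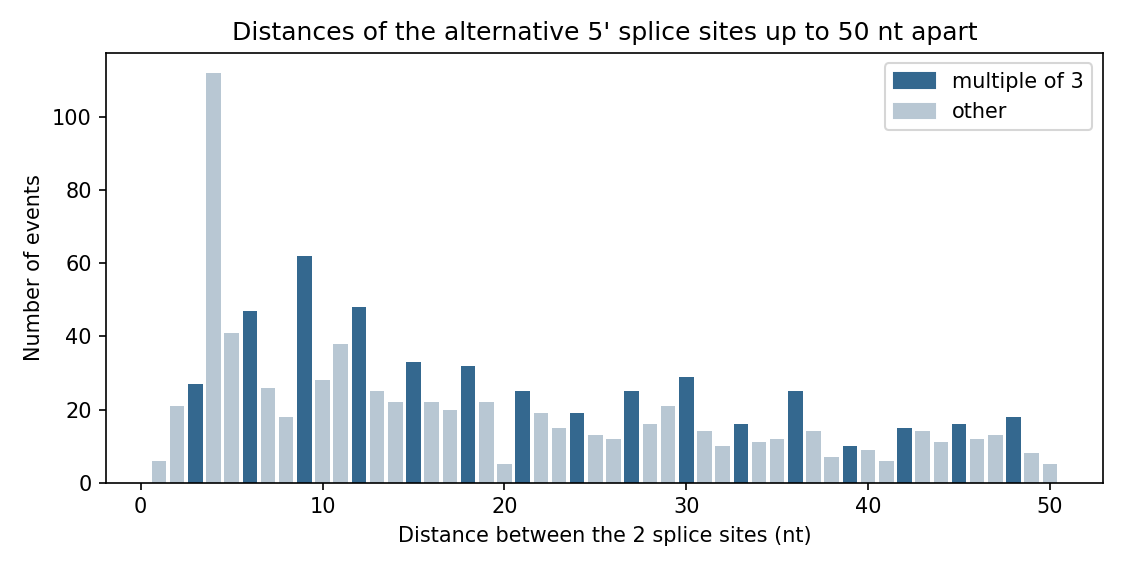
Number of alternative 5' splice site events (y axis) at each distance between the 2 sites in bases (x axis, nt). Dark bars are multiples of 3. The highest bar is 4 nt with 112 events, followed by 9 nt with 62 events.

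The inclusion level of an event is the share of the longer exon form, that is, of the downstream 5' splice site, after the reads of each form were divided by the length in which they could fall. It runs between 0 and 1. Reads inside the extension count towards the longer form as well as those across its junction. Of the 1095 events, 805 in 685 genes averaged 20 reads or more per value in cKO as well as in Control and were tested, with a median of 178 reads per value. Their median inclusion level was 0.497 in cKO and 0.470 in Control values. In 299 of them the Control level lay between 0.1 and 0.9.

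Most of the called events shifted toward the downstream site in cKO, as did most of those in the whole A5SS table, which includes them. Of the 805 tested events 11 (1.37%) were differential splicing variants (DSVs), defined by an FDR under 0.01 and a difference in inclusion of at least 0.1, beside 1.08% in the whole A5SS table. In 10 of the 11 the longer form rose in cKO (0.813% of the whole table), and in Clasrp alone it fell (0.271% of the whole table). The FDR came from a quasi-binomial model with Benjamini-Hochberg adjustment over all 1844 tested A5SS events. With no minimum size, 20 events rose and 3 fell at the same FDR, beside 2.06% and 0.542% of the whole table (2.6% in either direction). The cKO and Control values did not overlap in 91 events with a higher and 42 with a lower cKO level, 16.5% of the tested events, beside 15.7% in the whole table (9.87% higher and 5.8% lower). The level was higher in cKO in 57.6% of the tested events, against 51.8% in the whole table, with median differences of 0.0029 and 0.00056.

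The calls depended on how the spread was estimated. The model shares the spread across events so strongly (prior degrees of freedom 111) that an event's own 3 values per group had little weight. A model of the log2 ratio of both forms in limma called 0 of these events (79 at an unadjusted p under 0.05, 57 of them higher in cKO), and edgeR called 3, namely Pik3ip1, Gbp4 and Zfp445 (74 at an unadjusted p under 0.05). Leaving out 1 value in turn gave 5 calls without the second cKO value, 7 without the second Control value, 6 without the third Control value and 8 or 9 otherwise. An exact permutation test of 3 against 3 values cannot go below p = 0.1, which every event without overlap reaches.

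**Figure D2:**
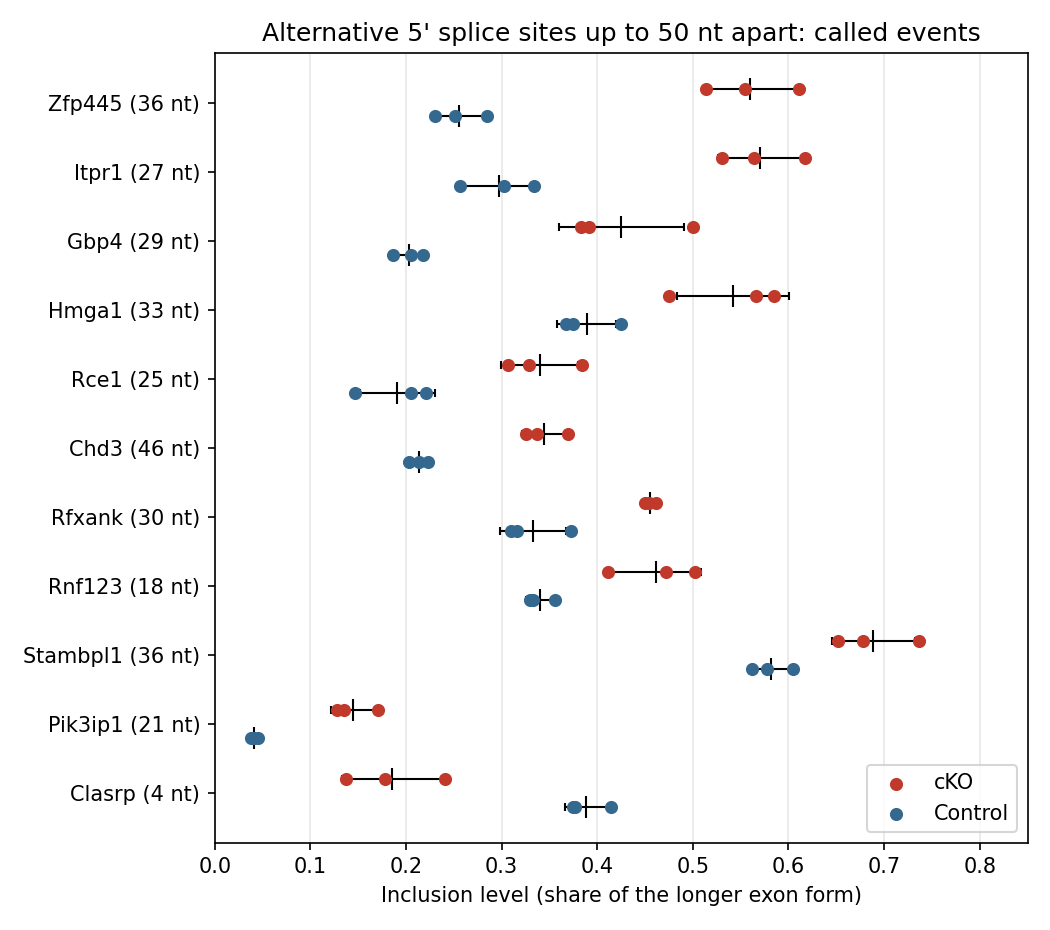
Inclusion level (x axis, share of the longer exon form) of the 11 called events, with the distance of their sites in nt. Points are the 3 cKO values (upper row of each event) and the 3 Control values (lower row), the tick is the mean and the line 1 SD. The cKO values lie to the right of all Control values in 10 events and to the left in Clasrp.

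Among genes of signalling and immunity, the longer form rose in Pik3ip1, Gbp4 and Itpr1. Pik3ip1, a membrane protein that restrains PI3K in T cells, had inclusion levels of 0.170, 0.127 and 0.135 in cKO, against 0.0448, 0.0380 and 0.0406 in Control. All cKO values lay above all Control values, and the rare downstream site rose by 0.103 ± 0.013 (SE, n = 3 each, FDR = 3.71e-17 in the quasi-binomial model). Behind these levels stood 154, 183 and 260 reads of the longer form in cKO, against 74, 71 and 64 in Control. The 21 added bases keep the frame. Without the first cKO value the difference was 0.0901, just under the minimum size, and the FDR stayed at 6.97e-08 or below whichever value was left out.

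Gbp4, an interferon-induced guanylate-binding protein, had levels of 0.5, 0.391 and 0.383 in cKO, against 0.186, 0.205 and 0.218 in Control. The groups did not overlap, and the difference was 0.222 ± 0.039 (FDR = 5.6e-16). Its 29 added bases shift the frame. Itpr1, a calcium channel of the endoplasmic reticulum opened by inositol trisphosphate, had levels of 0.530, 0.564 and 0.618 in cKO, against 0.256, 0.302 and 0.333 in Control, with no overlap. The 27 added bases keep the frame. It had the fewest reads of the called events, 24 to 82 of the longer form in cKO and 13 to 21 in Control, and its difference of 0.273 ± 0.034 (FDR = 0.00876) held its call without the first cKO value only, with FDRs of 0.00942 to 0.103 over the 6 omissions.

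Among enzymes of protein modification, the longer form rose in Rce1, Rnf123 and Stambpl1. Rce1, the protease that trims prenylated proteins such as Ras, had levels of 0.329, 0.306 and 0.384 in cKO, against 0.147, 0.205 and 0.220 in Control, a difference of 0.149 ± 0.032 (FDR = 5.78e-06). The groups stood apart, and 25 bases shift the frame. The same pair of Rce1 sites stood in a second event, joined to another downstream exon and covered by a mean of 52.0 reads in cKO and 23.7 in Control. There the levels were 0.784, 0.875 and 0.752 in cKO, against 0.825, 0.794 and 0.818 in Control, and overlapped (FDR = 0.954).

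Rnf123, a ubiquitin ligase subunit, had levels of 0.411, 0.472 and 0.503 in cKO, against 0.333, 0.356 and 0.329 in Control, a difference of 0.122 ± 0.028 (FDR = 0.00182). Stambpl1, a deubiquitinase of lysine-linked ubiquitin chains, had levels of 0.737, 0.678 and 0.652 in cKO, against 0.604, 0.577 and 0.562 in Control, a difference of 0.108 ± 0.028 (FDR = 0.0046). Neither pair of groups overlapped. The Rnf123 extension of 18 bases keeps the frame, while that of Stambpl1 changes only the end of a first, untranslated exon. For Stambpl1 no annotated transcript uses the upstream site, and 1 uses the downstream site. Rnf123 kept its call without the first cKO or the second Control value, and Stambpl1 without the third cKO or the first Control value. Over the 6 omissions the differences were 0.102 to 0.147 for Rnf123 (FDR 3.6e-04 to 0.0692) and 0.0835 to 0.126 for Stambpl1 (FDR 0.00198 to 0.0787).

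Among chromatin and transcription factors, the longer form rose in Zfp445, Chd3, Hmga1 and Rfxank. Zfp445, a KRAB zinc finger protein that guards genomic imprints, had levels of 0.611, 0.514 and 0.555 in cKO, against 0.230, 0.285 and 0.251 in Control. The downstream site thus took over from the upstream one as the site with the larger share, by a difference of 0.305 ± 0.032 (FDR = 1.1e-11), with 36 bases that keep the frame. It had the largest difference of the 11 events, and its call held in each omission of a value (FDR at most 3.14e-06).

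Chd3, a remodelling ATPase of the NuRD complex, had levels of 0.337, 0.326 and 0.370 in cKO, against 0.203, 0.223 and 0.214 in Control, a difference of 0.131 ± 0.014 (FDR = 1.82e-05). Its extension of 46 bases is covered by noncoding transcripts alone, and no annotated transcript uses its downstream site. The upstream site ends a coding exon in annotated transcripts, and 46 bases would shift that frame. Hmga1, an AT-hook protein of chromatin known in a longer and a shorter form, had levels of 0.566, 0.585 and 0.475 in cKO, against 0.367, 0.375 and 0.424 in Control, a difference of 0.153 ± 0.038 (FDR = 0.00173). Rfxank, a subunit of the RFX complex at MHC class II promoters, had levels of 0.462, 0.454 and 0.45 in cKO, against 0.316, 0.309 and 0.372 in Control, a difference of 0.123 ± 0.020 (FDR = 0.00715). The groups did not overlap in any of the 3 genes, and the extensions of 33 bases in Hmga1 and 30 bases in Rfxank keep the frame. Chd3 kept its call in each omission (FDR at most 0.00248). Hmga1 kept it without the first or the third cKO value only (FDR 2.01e-04 to 0.0735), and Rfxank in none of the 6 omissions (FDR 0.0152 to 0.0702).

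The downstream site fell in Clasrp, which encodes an SR-related protein that binds the kinase CLK4 and acts in splicing. Its levels were 0.241, 0.178 and 0.138 in cKO, against 0.374, 0.415 and 0.377 in Control, with no overlap and a difference of -0.203 ± 0.033 (FDR = 4.14e-04). Reads of the longer form numbered 31, 32 and 30 in cKO, against 59, 56 and 41 in Control. The 4 added bases shift the frame. The call was lost without the second or without the third cKO value, with FDRs of 8.72e-05 to 0.0243 over the omissions. The whole intron of this event was also measured as a retained intron, with a level of 0.137 in cKO and 0.126 in Control (FDR = 0.976).

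By distance, the 10 called events with the longer form higher in cKO lay 18 to 46 bases apart and Clasrp 4 bases apart. Of 278 tested events 13 to 30 bases apart 6 were called (2.16%), and of 184 events 31 to 50 bases apart 4 (2.17%), beside 1.08% of the whole A5SS table. Events 5 to 12 bases apart gave 0 of 224, where 13 had an unadjusted p under 0.05. Events under 4 bases apart gave 0 of 41, where 5 had one, beside 99 of all 805 tested close events. At 4 bases 1 of 78 was called (1.28%). With no minimum size the classes from 13 to 30 and from 31 to 50 bases held 10 and 9 events that rose and 1 and 0 that fell, the class of 4 bases 0 that rose and 2 that fell. Median reads were alike, 153 to 218 per value over the 5 classes. Whether the classes differ was not tested.

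**Figure D3:**
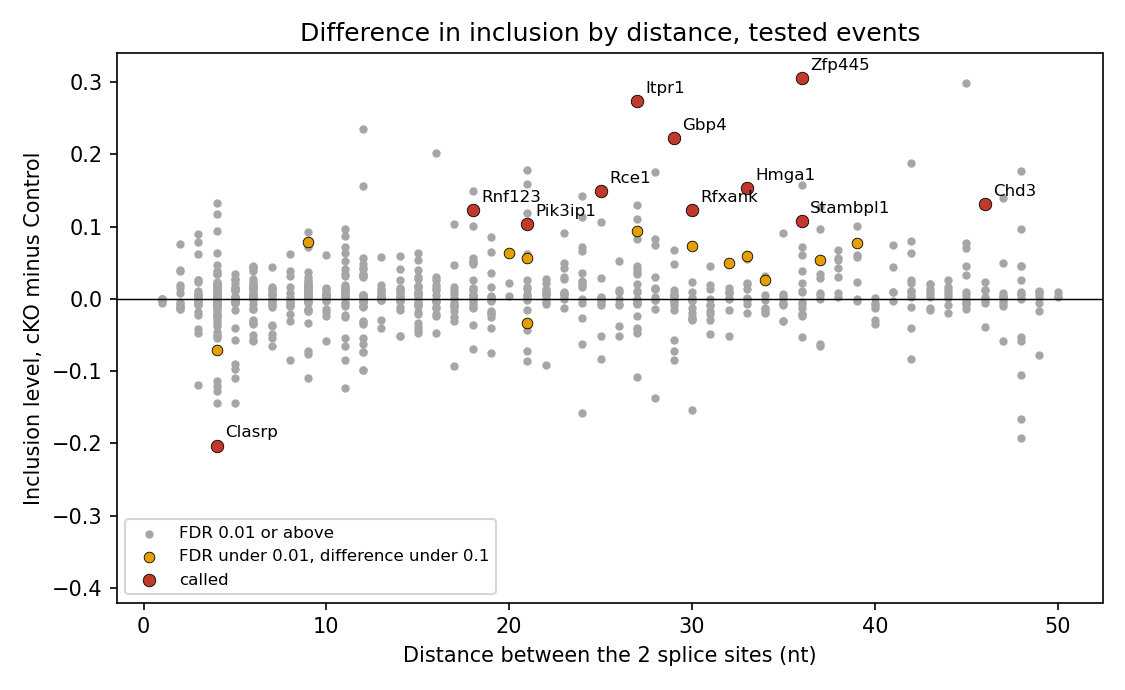
Difference in inclusion level, cKO minus Control (y axis), against the distance between the 2 sites in nt (x axis) for the 805 tested events. Red points are the 11 called events, orange points those at an FDR under 0.01 with a difference under 0.1, and grey points the rest. The red points above 0 lie at 18 to 46 nt and the one below 0, Clasrp, at 4 nt.

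Set beside other events, the A5SS more than 50 bases apart gave 9 DSVs of 1039 tested (0.866%), 5 with the longer form higher in cKO and 4 with it lower. Alternative 3' splice sites (A3SS) up to 50 bases apart, at the other end of the intron, gave 8 DSVs of 1779 tested (0.45%), 1 higher and 7 lower, beside 0.584% in the whole A3SS table (0.0974% higher and 0.487% lower). At A3SS the longer form uses the upstream site. The Control level lay between 0.1 and 0.9 in 250 of the 1039 and 628 of the 1779, against 299 of the 805 close A5SS events. The parts thus differ in how many events have both forms in use. The counts of DSVs stand side by side, and the difference between classes was not tested. They moved with the values used too: the A5SS over 50 bases gave 2, 4 and 2 calls without the second cKO, the third cKO and the third Control value, and the A3SS gave 5 without the second Control value.

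**Figure D4:**
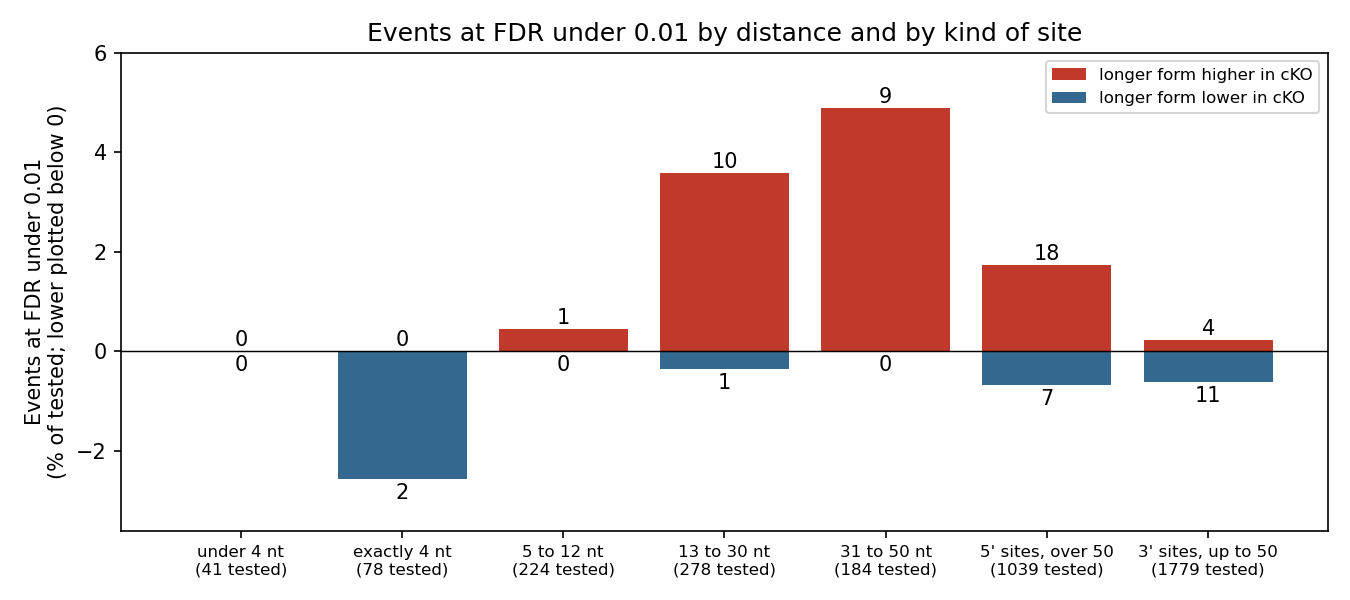
Events at an FDR under 0.01 of any size, as percent of tested events (y axis), for the 5 classes of distance of the close alternative 5' splice sites and for 2 other groups of events. Red bars above 0 are events with the longer form higher in cKO, blue bars below 0 those with it lower, with their numbers. The 13 to 30 nt and 31 to 50 nt classes hold 10 and 9 events above 0, against 1 and 0 below.

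Frame and position were described for the same events. Of 284 tested events whose coding extension keeps the frame 6 (2.11%) were called, all higher in cKO. Of 329 whose coding extension shifts it 3 (0.912%) were called, 2 of them higher, beside 1.08% of the whole A5SS table. The Control level lay between 0.1 and 0.9 in 146 of the 284 and in 80 of the 329. Fewer of the frame-shifting events thus had both forms in use. The other 2 called events stand outside these classes. The extension of Stambpl1 lies in a 5' UTR, and that of Chd3 is annotated as noncoding. In Chd3 the shorter exon is coding, and its 46 added bases are not a multiple of 3. An in-frame stop codon lay within the extension in 108 events. Of the 75 of these tested 0 were called and 12 had an unadjusted p under 0.05, beside 99 of all 805 tested close events. The level was higher in cKO in 72.0% of the 75, beside 57.6% of the 805. Those extensions were rarely used, with a median level of 0.0265 in cKO and 0.0207 in Control. Among events with 5 or 6 of the 6 intron bases after the upstream site equal to GTAAGT, the sequence complementary to U1, 6 of 237 were called (2.53%). Among those with 4 matches 3 of 257 were called (1.17%), and among those with 1 to 3 matches 2 of 215 (0.93%), beside the same 1.08%. Whether classes of frame or of matches differ was not tested. All 11 called events had GT at the upstream site.

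Genes of RNA processing and of T cells were read from lists of host genes. Of 46 events in genes on the RNA processing list 43 were tested and 0 called, beside 1.08% of the whole A5SS table. The called Clasrp, though its protein acts in splicing, is not on this list. Of the 43, 9 had an unadjusted p under 0.05, beside 235 of 1844 in the whole table. At an FDR under 0.01, 2 rose and 1 fell, beside 2.06% and 0.542% of the whole table. Srsf7, an SR protein, had 3 competing 5' splice sites in 1 exon. For its middle and downstream sites, 9 bases apart, the level of the downstream site was 0.484, 0.492 and 0.469 in cKO, against 0.398, 0.403 and 0.409 in Control. These groups stood well apart, and the difference was 0.0784 ± 0.0075 (FDR = 7.59e-05 in the quasi-binomial model). For this pair the FDR was 0.573 in limma and 0.481 in edgeR. Between the upstream and the downstream site, 33 bases apart, the level was 0.829, 0.808 and 0.837 in cKO, against 0.763, 0.773 and 0.772 in Control (FDR = 0.0147). Between the upstream and the middle site, 24 bases apart, it averaged 0.833 ± 0.019 in cKO and 0.817 ± 0.0030 in Control (SD, n = 3 each, FDR = 0.681) and overlapped. The 3 pairs share reads and are not independent.

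**Figure D5:**
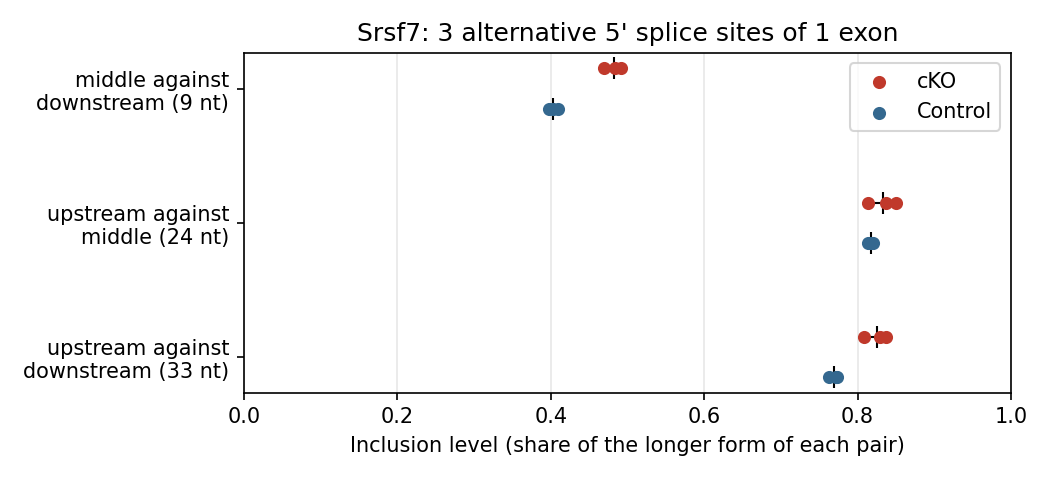
Inclusion level (x axis, share of the longer form of each pair) for the 3 pairs among 3 alternative 5' splice sites of 1 Srsf7 exon. Points are the 3 cKO values (upper row) and 3 Control values (lower row), the tick is the mean and the line 1 SD. The cKO values of the middle and downstream pair lie at 0.469 to 0.492, all above the Control values of 0.398 to 0.409.

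Srsf5, another SR protein, moved the other way in its 5' UTR. The longer form, by 4 bases, stood at 0.658, 0.623 and 0.647 in cKO, against 0.720, 0.711 and 0.707 in Control, and fell by 0.0702 on the scale of the inclusion level (SE 0.011, FDR = 1.96e-05). Hnrnpc, an RNA-binding protein made in 2 forms that differ at this exon end, had levels of 0.385, 0.463 and 0.456 in cKO, against 0.372, 0.358 and 0.344 in Control, and rose by 0.0768 ± 0.026 (FDR = 5.78e-06). The lowest cKO value lay only just above the highest Control value. In both genes the difference was under the minimum size of 0.1. Srsf5 and Hnrnpc had FDRs of 0.616 and 0.609 in limma, and of 0.462 and 0.461 in edgeR.

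Of 16 events in genes of T cell function 12 were tested and 1, Pik3ip1, was called, beside 1.08% of the whole A5SS table. A list of 12 tested events is too short to set its share apart from that of the whole table. Traf2, an adaptor of TNF receptors, had levels of 0.161, 0.152 and 0.196 in cKO, against 0.105, 0.127 and 0.106 in Control (FDR = 0.00639). In limma and edgeR the FDR of Traf2 was 0.425 and 0.288. Ikzf1, which encodes Ikaros, had levels of 0.354, 0.323 and 0.316 in cKO, against 0.193, 0.311 and 0.215 in Control, and did not pass the test (FDR = 0.295). Of 8 events in genes of p53 and cell death 8 were tested and 0 called, beside the same 1.08%. An unadjusted p under 0.05 was reached by 0 of these 8, beside 235 of 1844 in the whole table. Their smallest FDR was that of Birc6, a ubiquitin-conjugating inhibitor of apoptosis, at a pair 12 bases apart (0.268 ± 0.014 in cKO and 0.367 ± 0.085 in Control, SD, n = 3 each, FDR = 0.482).

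Events with many reads and both forms in use were read next. Cnbp, a zinc finger protein that binds nucleic acids, had 6311 to 7396 reads of the longer form in cKO and 5924 to 6939 in Control. Its 21 base extension stood at 0.683, 0.665 and 0.661 in cKO, against 0.704, 0.704 and 0.701 in Control, and fell by 0.0334 (SE 0.0069, FDR = 2.38e-05). That FDR rests on the spread pooled across events, and for Cnbp it was 0.808 in limma and 0.725 in edgeR. Stat3, with 3 bases between its sites, averaged 0.852 ± 0.0092 in cKO and 0.847 ± 0.0068 in Control (FDR = 0.755). Itgal, the alpha chain of LFA-1, also 3 bases apart, averaged 0.375 ± 0.022 in cKO and 0.417 ± 0.045 in Control (FDR = 0.427). Rbm3, a cold-induced RNA-binding protein with sites 4 bases apart, averaged 0.258 ± 0.020 in cKO and 0.260 ± 0.016 in Control (FDR = 0.793). Each of these 3 pairs of groups overlapped. Psmd4, a ubiquitin receptor of the proteasome with sites 9 bases apart, averaged 0.461 ± 0.027 in cKO and 0.424 ± 0.017 in Control (FDR = 0.0291), and Tmem134, 11 bases apart, 0.178 ± 0.025 in cKO and 0.163 ± 0.0075 in Control (FDR = 0.706).

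Large differences without a call rested on few reads, though the called Itpr1 had few as well. Over the 6 events below, mean reads per value of both forms ran from 20.7 (Btbd16) to 90.3 (Snapc4) in cKO. In Control they ran from 22.3 to 70.3 in the same 2 genes. Itpr1 averaged 86 in cKO and 47.3 in Control. Mapre3, a protein of growing microtubule ends, had levels of 0.736, 0.583 and 0.731 in cKO, against 0.308, 0.481 and 0.365 in Control, from 29, 40 and 39 reads of the longer form in cKO and 11, 29 and 6 in Control (FDR = 0.146). Ubr3, a ubiquitin ligase, differed by 0.235 ± 0.10 (FDR = 0.388), Tepsin, an accessory protein of the adaptor AP-4, by 0.202 ± 0.053 (FDR = 0.0714), Tanc1 by 0.179 ± 0.047 (FDR = 0.265) and Snapc4, a subunit of the snRNA-activating complex, by 0.176 ± 0.059 (FDR = 0.0305). Btbd16 differed by -0.193 ± 0.060 (FDR = 0.595). These 6 events were chosen among differences without overlap between groups, which 15.7% of all tested A5SS events show. They were not distinguishable at this depth at an FDR of 0.01.

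At the limit of the set, Med8 and Mrpl4, with sites 50 bases apart, had mean levels of 0.00595 and 0.00365 in cKO, against 0.00256 and 0.00153 in Control. Rb1cc1 and Dpp3, with sites 51 bases apart and just outside it, had mean levels of 1 and 0.999 in cKO, against 0.996 and 1 in Control.

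The amount of host gene RNA was read beside the choice of site. Of the 685 genes with a tested event 677 were tested for expression and 0 passed both limits, an adjusted p below 0.05 and a change of more than 1 on the log2 scale, which 0.564% of all genes passed. Regardless of size, 3 of the 677 passed the limit on the adjusted p in limma, beside 0.973% of all genes (0.673% higher and 0.3% lower in cKO). Pik3ip1 had normalized counts of 11541, 13185 and 17772 in cKO, against 17802, 18797 and 22042 in Control, a log2 fold change of -0.48 (SE 0.17, limma adjusted p = 0.237). The highest cKO library lay just below the lowest Control library. The other 10 hosts of called events had log2 fold changes of -0.40 (Chd3) to 0.33 (Itpr1) and adjusted p of 0.226 or above. Polk, a translesion DNA polymerase, was higher by 0.95 on the log2 scale (adjusted p = 0.0198), while its pair of sites 37 bases apart averaged 0.879 ± 0.056 in cKO and 0.941 ± 0.032 in Control (SD, n = 3 each, FDR = 0.637).

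Of 24 factors that recognise 5' splice sites, 1 passed the test for expression (0.564% of all genes did), Prpf8, the large U5 protein at the heart of the spliceosome, with normalized counts of 26197, 29103 and 31766 in cKO, against 13928, 15342 and 11056 in Control (log2 fold change 1.12, adjusted p = 0.022). Log2 fold changes were 0.42 for Snrpc, a U1 protein (adjusted p = 0.257), -0.33 for Tia1 (adjusted p = 0.244) and -0.25 for Tial1 (adjusted p = 0.265), the last 2 being proteins that help U1 bind weak sites. Of 21 proteins of U5 and the tri-snRNP 3 rose and 1 fell, the last being Cd2bp2, beside 0.564% of all genes in either direction (49 higher and 13 lower of 11001). Besides Prpf8 these were Prpf3, a U4/U6 protein (log2 fold change 1.66, adjusted p = 0.00137), and Snrnp200, the U5 helicase that unwinds U4/U6 (1.27, adjusted p = 0.00575).

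Other events of the same introns and genes were compared. The intron of 88 close A5SS events was also listed as a retained intron, and 71 were tested in both tables. Retention was higher in cKO in 35 of the 71, with a median difference of -0.00027. Of the 71, 0 were called as retained introns, beside 0.181% in the whole table of retained introns. These counts are of A5SS events, so an intron shared by more than 1 event, as in Cnbp, counts more than once. For Cnbp, the intron was retained at 0.174 in cKO and 0.198 in Control (FDR = 0.158, unadjusted p = 0.00201). A called skipped exon lay in 32 of the 685 genes with a tested close pair (4.67%), and in 154 of 7960 genes with any tested skipped exon (1.94%). Of all tested skipped exons 0.495% were called. These shares are not matched for the number of exons or reads. Of the 11 hosts of called events Gbp4 alone had one.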

How the data were processed

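RNA-seq libraries of CD4+ T cells, 3 cKO and 3 Control, were analysed. The authors trimmed with cutadapt, aligned with STAR to GRCm38 (the submitters' processing notes list mm10 too), used rMATS for splicing events and featureCounts with DESeq2 for genes. The deposited splicing tables hold, for each event, counts of both forms from junction and exon body reads, as 3 values per condition without library names, and the authors' own p-values and differences, which were not used. The deposited expression table holds a signal for every gene, titled DESeq2 normalized counts, and after multiplication by 1 factor per library estimated here all of them came out as whole reads within 0.01. Mutually exclusive exons and the authors' expression comparison (log2 fold changes and p-values) were not used. In 1996 of 1996 skipped exons compared, the first rMATS sample had the mean counts that the study's supplement gives for Control. Replicates of a condition are separate libraries. Expression p-values rest on the spread between them, moderated across genes. Splicing p-values of A5SS rest mainly on a spread pooled across events (prior degrees of freedom 111), with little weight on an event's own values. No 2 libraries differed by as little as sampling noise.

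The distance was the length of the longer minus that of the shorter exon. Events that averaged 20 reads or more per value in each condition entered a quasi-binomial logistic model, with the dispersion moderated by limma 3.58.1 (R 4.3.3), a prior estimated from events with 5 or more reads of the rarer form on average, and a floor of 1. The inclusion levels calculated here differed from the deposited levels by at most 5e-04. Alternatives were other priors, filters, limma on log2 ratios with 0.5 added, edgeR 4.0.16 and omission of each value. Genes averaging 100 normalized counts or more in cKO or in Control (11001 genes) entered limma on log2(value + 1), a scale that understates the change of low genes. edgeR on the recovered whole reads called 61 genes, against 62. The methods were run on simulated data. For splicing, the simulated spread was the one the same model had fitted, so that run could not test how the spread was estimated. Sequences and positions came from GENCODE M21, where both sites were annotated for 1070 of 1095 events; intron bases were read where a transcript covers them. Counts of overlapping genes cannot be separated.

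Named events were the called ones, the 10 largest differences without overlap, 2 with the most reads per class of distance, up to 4 of smallest p per host list and 2 on each side of the limit of 50 bases. One event named by this rule is not reported here. Members and lists were chosen with earlier results of these data known.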

Additional observations from a re-analysis of the deposited data

How the results depend on the processing

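The 11 DSVs of the close alternative 5' splice sites numbered 10 to 12 under other dispersion priors, read filters, an FDR of 0.05, unscaled shares and 1 event per pair of sites. They numbered 21 at a difference of at least 0.05, 3 with edgeR and 0 with limma, and 5 to 9 when 1 value was left out. The 9 DSVs of sites over 50 bases apart numbered 2 with edgeR, 0 with limma and 2 to 11 when 1 value was left out. The 8 of close alternative 3' splice sites numbered 4 with edgeR, 0 with limma and 5 to 7 when 1 value was left out. The limma and edgeR fits of these last 2 groups were chosen after seeing the data. The 62 expression calls (49 higher, 13 lower) numbered 64 after quantile normalization, split 44 and 20, and 26 to 70 when 1 library was left out. When 1 value was left out, the difference in inclusion of Dpp3 ranged between -0.00189 and 0, and differences changed sign for Stat3 (-0.000104 to 0.00869) and Rbm3 (-0.0135 to 0.00653), and so did the log2 fold changes of Zfp445 (-0.207 to 0.0107), Rce1 (-0.00778 to 0.141) and Rnf123 (-0.322 to 0.0197) when 1 library was left out. The cause was not tested. No paired analysis was possible because the 3 splicing values of a condition carry no library name and the labels pair no libraries. Depth limits events with few reads of 1 form, and 290 of the 1095 events had too few reads to be tested.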
